A study of Homo sapiens with 6 samples.

Results

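The genes described here carry out the integrated stress response and the unfolded protein response, the programmes by which a cell meets a shortage of amino acids and a load of unfolded protein in the endoplasmic reticulum (ER). They were chosen as a list of 46 gene symbols, with earlier results of these data known. Each of the 46 had its own row among the 53719 rows of the deposited gene table. The counts were high enough to test 43 of them, among 19721 genes tested in all. All libraries came from H9, an established line of human embryonic stem cells, kept in RSeT, a commercial medium for a naive-type state. The knockdown group (3 libraries, labelled ALR Knockdown) received a gapmer directed at ALR, the RNA transcribed from the alpha satellite repeats of centromeres, and the control group (3 libraries) received a control gapmer. A gapmer is an antisense oligonucleotide whose DNA core directs RNase H to the RNA it pairs with. Transfection therefore touched both groups, and RNA was taken from both at 48 h. The labels name 1 cell line and no separate cultures, so p-values measure only the spread between libraries, which may be technical. The level of ALR RNA itself was not analysed here.

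The integrated stress response starts with kinases that phosphorylate the translation factor eIF2, each answering to its own signal. Phosphorylated eIF2 slows most translation but favours that of the transcription factor ATF4, which switches on genes for amino acid synthesis and uptake, while a phosphatase recruited by PPP1R15A removes the phosphate again. The unfolded protein response has 3 sensors in the ER membrane: PERK, encoded by EIF2AK3 and shared with the integrated stress response, IRE1, encoded by ERN1, and ATF6. IRE1 and ATF6 act through the transcription factors XBP1 and cleaved ATF6 on genes for ER chaperones and for the removal of misfolded proteins. Much of the regulation is by phosphorylation, splicing, cleavage and translation, which a count of reads per gene does not record.

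Library totals ranged from 25087629 to 36576752 counts, and levels below are in CPM, counts divided by the TMM-corrected library total and put on a common scale. Knockdown library a stood apart from the other 5: it had counts in 29678 rows against 25898 to 26788, and it lay at -55.5 on the first principal component (35.4% of the variance) against 4.16 to 17.2. Of the core pluripotency markers, POU5F1, NANOG, LIN28A and DPPA4 summed to 2811 to 3168 CPM in knockdown and 2736 to 2787 CPM in control libraries. Most of that was LIN28A and DPPA4, and the SOX2 row held 0 counts throughout. Naive-state markers summed to 49.1 to 54.2 CPM in knockdown and 49.7 to 52.6 CPM in control libraries, most of it TFCP2L1 and KLF4, with KLF17 at 0.0275 to 0.353 CPM. Primed-state markers summed to 206.5 to 227.4 CPM and 206.3 to 215.3 CPM, without CD24, which had no row. Fibroblast markers summed to 86.0 to 95.1 CPM in knockdown and 90.1 to 103.5 CPM in control libraries, almost all of it COL1A1 and COL1A2, with COL3A1, DCN and LUM near 0. Trophectoderm markers summed to at most 2.38 CPM. No marker passed the adjusted threshold, with edgeR's quasi-likelihood test and Benjamini-Hochberg adjustment. At an unadjusted p under 0.05, 2 of 4 tested core markers were higher in knockdown, POU5F1 (log2 fold change 0.42) and LIN28A (0.19). Lower were 1 of 5 tested naive markers, DNMT3L (-0.72), and 1 of 2 tested fibroblast markers, COL1A2 (-0.20). None of the 4 primed or 3 trophectoderm markers tested was at that level, where 14.3% of all genes tested were. The part of cell state or other cells in the results was not tested. In such bulk RNA, fewer cells of a type and less RNA per cell cannot be told apart.

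Across the 43 genes tested, none passed an adjusted p of 0.05 with edgeR, where 155 of all genes tested did (0.786%, with 0.137% higher and 0.649% lower in knockdown). DESeq2 called 3 of the 43, against 2.72% of all genes tested, and limma-voom 0, against 0.882%. At an unadjusted p under 0.05 there were 16 of the 43 (37.2%), 11 higher and 5 lower in knockdown, against 14.3% of all genes tested (6.68% higher and 7.57% lower). Among genes with a mean count of at least 50, which includes all 43, that background was 17.2%. The backgrounds by direction given here and below are over all genes tested, without that limit on counts. With a trend on GC content removed, 11 of the 43 had an unadjusted p under 0.05, against 12.2%. With a trend on transcript length removed it was 12, against 14.8%. Values did not overlap between the groups for 17 of the 43 (39.5%), 11 higher and 6 lower, against 18.9% of all genes tested (9.55% higher and 9.37% lower). Because genes and roles were chosen with earlier results of these data known, no share here or below is a test of the pathway. The differences were small: the log2 fold changes ran from -0.44 (DDIT3) to 0.36 (SDF2L1), with a median of 0.04 against 0.02 over all genes tested, and 30 of the 43 lay above 0 where 54.4% of all genes did. Both arms that the list was built to contrast lay on the same side. The median was 0.11 over the 12 genes of the ATF4 amino acid arm and 0.13 over the 14 genes of the ER chaperone arm. The regulators of the ATF4 pathway are taken here as the eIF2 kinases and phosphatase subunits, the stress transcription factors and 2 feedback genes. They held 4 of the 5 genes lower at an unadjusted p under 0.05, 4 of 11 tested (36.4%), against 7.57% of all genes tested. Some of these 4, such as PPP1R15A and ATF3, are themselves stress-induced. ERN1, XBP1 and ATF6 were grouped apart as ER sensors, and 0 of these 3 were at that level. EIF2AK3, whose product is also an ER sensor, was counted with the regulators, so the share depends on how roles were assigned.

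**Figure D1:**
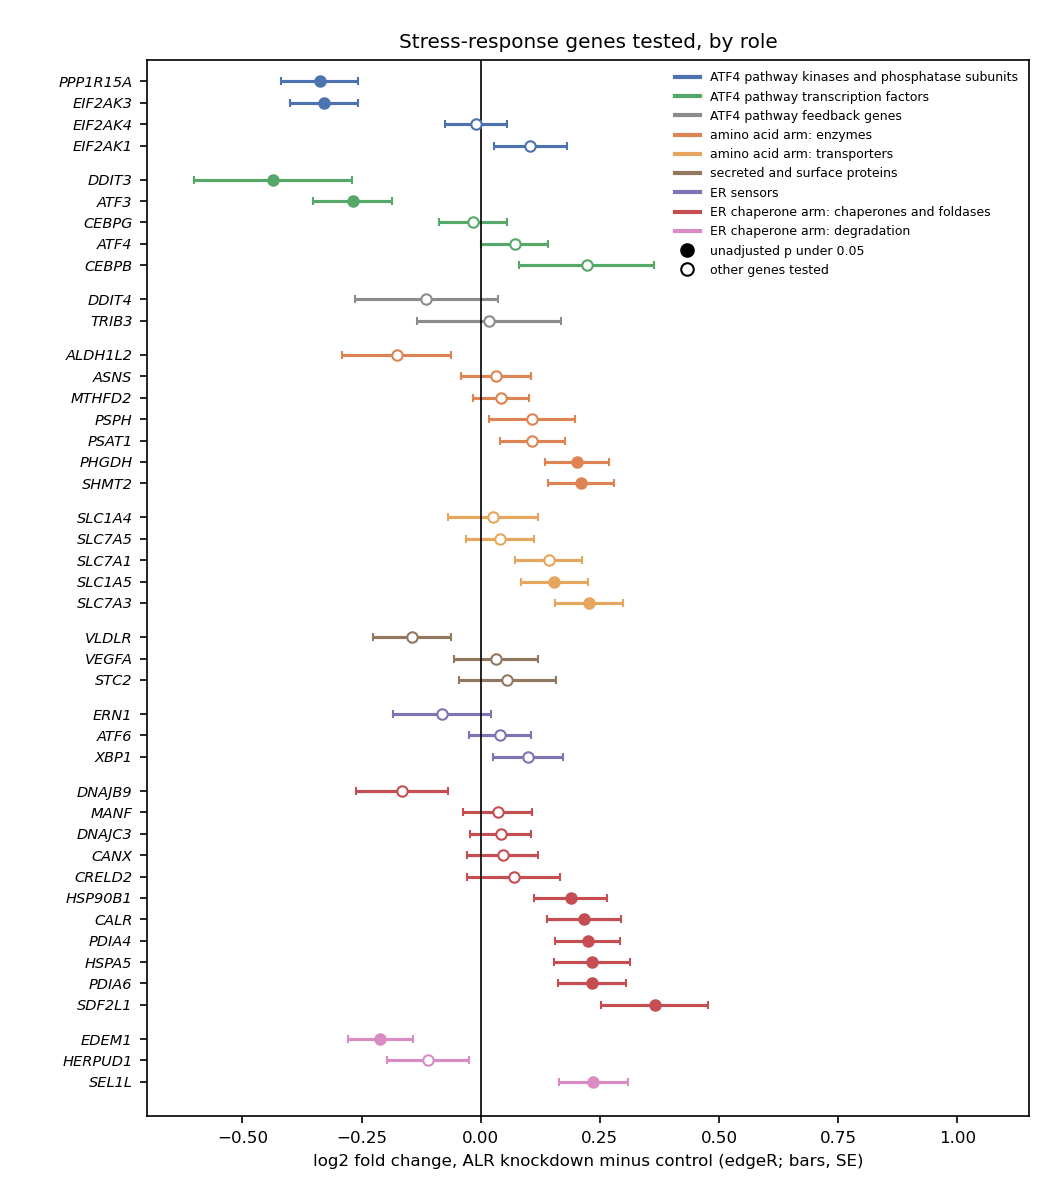
Log2 fold change of the 43 genes tested (x axis, knockdown minus control, edgeR; bars are SE), grouped by role on the y axis, with filled points for an unadjusted p under 0.05. The filled points of the 2 groups at the top (EIF2AK3, PPP1R15A, DDIT3, ATF3) all lie left of 0, and 11 of the other 12 filled points, all but EDEM1, lie right of it.

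Of the 3 eIF2 kinases on the list, EIF2AK3 alone had an unadjusted p under 0.05, and the difference between them was not tested. A further eIF2 kinase outside the list, EIF2AK2, had a log2 fold change of -0.0017 ± 0.07 (SE). EIF2AK3, encoding PERK, which is activated by unfolded protein in the ER, was at 34.1, 34.7 and 36.6 CPM in the knockdown group and at 44.7, 41.4 and 46.3 CPM in the control group, here and below in the order of the library letters a, b and c. Every knockdown library lay below every control library. The log2 fold change was -0.33 ± 0.07 (SE; edgeR, unadjusted p = 0.00056, adjusted p = 0.0611), so it missed the threshold narrowly. Over the 17 alternative settings the adjusted p ran from 0.00602 to 0.34, and it passed in 6 of them: no filter on low counts, DESeq2's Wald test, a robust fit, a replicate block, removal of a gene length trend, and without knockdown library c. EIF2AK1, the heme-regulated and mitochondria-linked kinase, was at 118.2, 126.9 and 115.7 CPM in knockdown and 116.1, 119.4 and 100.4 CPM in control libraries. Its groups overlapped, with a log2 fold change of 0.10 ± 0.08 (SE; adjusted p = 0.578 with edgeR). EIF2AK4, encoding GCN2, the kinase that senses uncharged tRNA, was at 101.3, 111.1 and 102.2 CPM in knockdown and 101.8, 108.8 and 106.3 CPM in control libraries. The 2 groups were interleaved, and its log2 fold change of -0.01 had a 95% interval from -0.15 to 0.13. The directional kit marks strand, but whether counting used it is not given, so reads of EIF2AK3 and its antisense gene EIF2AK3-AS1, or of EIF2AK1 and its neighbour AIMP2, may not be separated.

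PPP1R15A, encoding GADD34, the stress-induced subunit that brings phosphatase 1 to eIF2, was at 24.2, 24.4 and 21.5 CPM in knockdown and 31.5, 28.6 and 28.7 CPM in control libraries. The groups did not overlap, and no other annotated gene overlaps this one. Its log2 fold change was -0.34 ± 0.08 (SE; edgeR, unadjusted p = 0.00119, adjusted p = 0.083). It passed in 5 of the 17 alternatives, and at an adjusted p of 0.0492 in the fit with a replicate block, within a range of 0.00468 to 0.315 over all 17. The row of its constitutive counterpart PPP1R15B held 0 counts in all 6 libraries.

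The 4 genes with the smallest p among the regulators of the ATF4 pathway did not include ATF4. ATF4, the central transcription factor, was at 173.1, 182.3 and 155.4 CPM in knockdown and 163.7, 162.8 and 159.7 CPM in control libraries. Knockdown library c was the lowest of all 6 and library b the highest. The log2 fold change was 0.07 with a 95% interval from -0.08 to 0.22 (edgeR, adjusted p = 0.691), and it was -0.03 once a trend on GC content was removed. ATF3, a stress-induced repressor of the same family, was at 15.26, 15.97 and 15.43 CPM in knockdown and 17.8, 19.1 and 19.3 CPM in control libraries. These groups did not overlap, with the knockdown libraries lower by 0.27 ± 0.08 on the log2 scale (SE; unadjusted p = 0.0071, adjusted p = 0.173 with edgeR). DDIT3, encoding CHOP, the factor associated with cell death under prolonged ER stress, was at 3.46, 3.09 and 4.27 CPM in knockdown and 4.96, 4.86 and 4.76 CPM in control libraries. All 3 knockdown values lay below all 3 control values, and library c was nearest to the controls. The log2 fold change was -0.44 ± 0.17 (SE; unadjusted p = 0.0217, adjusted p = 0.263 with edgeR). The DDIT3 locus overlaps MARS1, encoding a tRNA synthetase, so part of its reads may belong to either. ATF3 and DDIT3 passed under none of the 17 alternatives.

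CEBPB, a partner of ATF4 on its target sites, was at 7.40, 8.90 and 7.91 CPM in knockdown and 8.23, 5.99 and 6.61 CPM in control libraries, with overlapping groups and an adjusted p of 0.517 (edgeR). CEBPG, another dimer partner, had a log2 fold change of -0.02. The ATF5 row, for a factor controlled at translation like ATF4, held 0 counts in all 6 libraries, and its locus overlaps NUP62 and IL4I1. NUPR1, a small stress-induced chromatin protein, was at 0.0353 to 0.161 CPM, too low to test. The feedback genes DDIT4, an inhibitor of mTORC1, and TRIB3, a pseudokinase that restrains ATF4 and AKT, had log2 fold changes of -0.11 and 0.02, each with an SE of 0.15, and neither passed.

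**Figure D2:**
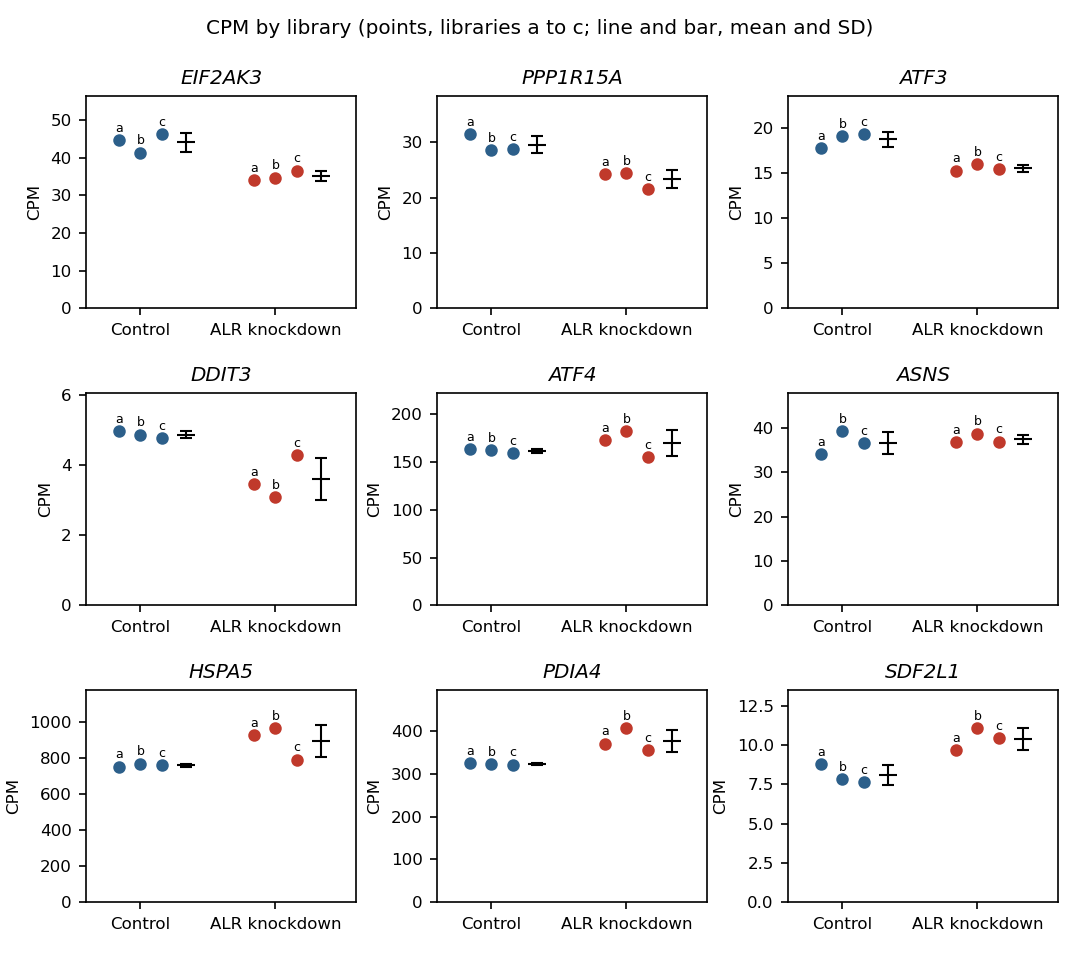
Level in CPM (y axis, from 0) of 9 genes in each library (points, letters a to c), with the mean and SD of the 3 libraries of each group beside them. EIF2AK3, PPP1R15A, ATF3 and DDIT3 are lower in every knockdown library, ATF4 and ASNS overlap between groups, and HSPA5, PDIA4 and SDF2L1 are higher in every knockdown library.

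The amino acid arm holds genes that ATF4 is known to drive when amino acids run short. ATF4 binds with a C/EBP partner to the C/EBP-ATF response element, searched for here as TGATGNAA on either strand in RefSeq promoter windows (GRCh38.p14, 250 bases before to 50 after each start). Of the 12 genes of the arm, 8 had a window and 4 of these held the element (ASNS, SLC1A4, SLC1A5 and SLC7A1), against 4.46% of 27305 genes. The element is also in the windows of ATF3, CEBPG, PPP1R15B and HERPUD1. It is shown for ASNS, the best-known target, and for ATF3, with 20 bases on each side, the element in capitals and positions counted from the first start listed.
ASNS (chr7:97872449-97872496, minus strand, -88 to -41): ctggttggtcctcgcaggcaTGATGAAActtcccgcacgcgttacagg
ATF3 (chr1:212565196-212565243, plus strand, -211 to -164): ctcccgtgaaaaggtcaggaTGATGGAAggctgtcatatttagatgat

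ASNS, encoding asparagine synthetase, was at 36.8, 38.7 and 36.9 CPM in knockdown and 34.1, 39.2 and 36.5 CPM in control libraries. The lowest and the highest library were both controls, and the log2 fold change was 0.03 with a 95% interval from -0.13 to 0.19 (edgeR, adjusted p = 0.883). Neither ATF4 nor this target of it therefore passed the threshold.

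The enzymes of serine synthesis and one-carbon metabolism lay mostly higher. PHGDH, which commits a glycolytic intermediate to serine synthesis, was at 163.5, 174.7 and 174.5 CPM in knockdown and 145.9, 141.6 and 158.1 CPM in control libraries. SHMT2, which passes the carbon of serine to folate in mitochondria, was at 81.4, 82.1 and 81.7 CPM in knockdown and 74.2, 73.3 and 64.6 CPM in control libraries. Every knockdown library was above every control library for both. Their log2 fold changes were 0.20 ± 0.07 and 0.21 ± 0.07 (SE), with adjusted p of 0.200 and 0.199 (edgeR). Once the GC trend was removed PHGDH was at 0.15 and SHMT2 at 0.11. PSAT1, the transaminase between PHGDH and PSPH, was at 164.7, 170.6 and 165.4 CPM in knockdown and 142.0, 162.7 and 159.6 CPM in control libraries. Its groups also did not overlap, though control library a alone lay far below, and the log2 fold change was 0.11 ± 0.07 (SE; unadjusted p = 0.139). PSPH, the last step to serine, stood at 0.11 and MTHFD2, a mitochondrial folate enzyme, at 0.04 on the log2 scale. ALDH1L2, which oxidises the folate product, was the only gene of the arm below 0, at -0.18 ± 0.11 (SE; unadjusted p = 0.15).

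Of the 5 amino acid transporters, all had log2 fold changes above 0 and none passed. SLC7A3, which carries arginine and lysine, was at 66.4, 67.5 and 58.8 CPM in knockdown and 57.1, 54.0 and 53.6 CPM in control libraries. The groups did not overlap, with knockdown library c close to the controls, and the log2 fold change was 0.23 ± 0.07 (SE; unadjusted p = 0.008, adjusted p = 0.181 with edgeR). SLC1A5, a transporter of glutamine and other neutral amino acids, was at 109.8, 126.2 and 119.6 CPM in knockdown and 109.8, 108.2 and 101.7 CPM in control libraries. Knockdown library a equalled control library a to the digits given, and the log2 fold change was 0.15 ± 0.07 (SE; adjusted p = 0.343 with edgeR). SLC1A5 was at 0.0296 with the GC trend removed and at 0.10 without knockdown library b. SLC7A1, another carrier of arginine and lysine, had a log2 fold change of 0.14, SLC7A5, the leucine exchanger LAT1, 0.04, and SLC1A4, a carrier of alanine and serine, 0.03. Over the 12 genes of the arm, 4 were higher and none lower at an unadjusted p under 0.05, where 6.68% of all genes tested were higher and 7.57% lower.

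VLDLR, a lipoprotein receptor, STC2, a secreted glycoprotein, and VEGFA, the angiogenic growth factor, are stress targets outside both arms. Their log2 fold changes were -0.14, 0.06 and 0.03, and none reached an unadjusted p under 0.05.

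Of the ER sensors besides PERK, and of XBP1, none reached an unadjusted p under 0.05. ERN1, encoding IRE1, was at 10.3, 9.68 and 9.46 CPM in knockdown and 10.06, 10.02 and 10.98 CPM in control libraries, and the groups overlapped (log2 fold change -0.08 ± 0.10 SE; adjusted p = 0.77 with edgeR). XBP1, whose RNA IRE1 splices, was at 124.0, 124.0 and 108.1 CPM in knockdown and 106.4, 117.6 and 108.6 CPM in control libraries. Knockdown library c lay among the controls, and the log2 fold change was 0.10 ± 0.07 (SE; adjusted p = 0.581 with edgeR). ATF6 was at 75.1, 76.8 and 77.8 CPM in knockdown and 72.8, 71.3 and 79.3 CPM in control libraries, with a log2 fold change of 0.04 ± 0.07 (SE). The counts do not separate spliced from unspliced XBP1 RNA or cleaved from full-length ATF6.

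ATF6 is known to act on the ER stress response element, searched for as CCAAT, then any 9 bases, then CCACG, on either strand of the same windows. It was present in 6 of the 14 genes of the ER chaperone arm (42.9%: HSPA5, HSP90B1, CALR, CANX, CRELD2 and PDIA6) and in XBP1, against 25 of 27305 genes (0.0916%). No gene of the amino acid arm with a window held it (0 of 8), and HERPUD1 was the 1 gene of the 14 that held the C/EBP-ATF element. The unfolded protein response element, searched for as TGACGTG, was in none of the 39 windowed genes of the list and in 2.4% of all genes. The stretches below show the element in capitals with 20 bases on each side. In CALR, CRELD2 and the second element of HSP90B1 it lies on the opposite strand and so reads as its reverse complement. HSP90B1 holds 2 elements, printed in 1 run.
HSPA5 (chr9:125241371-125241429, minus strand, -86 to -28): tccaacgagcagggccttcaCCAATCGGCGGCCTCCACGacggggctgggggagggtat
HSP90B1 (chr12:103930196-103930359, plus strand, -214 to -51): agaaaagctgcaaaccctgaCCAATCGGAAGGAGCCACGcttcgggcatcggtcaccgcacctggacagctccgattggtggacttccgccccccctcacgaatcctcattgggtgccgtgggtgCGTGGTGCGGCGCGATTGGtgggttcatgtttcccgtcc
CALR (chr19:12938364-12938422, plus strand, -245 to -187): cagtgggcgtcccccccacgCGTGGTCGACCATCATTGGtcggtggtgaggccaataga
CRELD2 (chr22:49918534-49918592, plus strand, -100 to -42): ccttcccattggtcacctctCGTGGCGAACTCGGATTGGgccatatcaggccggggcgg
XBP1 (chr22:28800583-28800641, minus strand, -72 to -14): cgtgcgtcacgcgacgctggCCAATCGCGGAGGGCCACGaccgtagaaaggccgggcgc

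The ER chaperones and foldases include the most abundant genes of the list. In control libraries HSP90B1, at 376.6 CPM per kilobase of its longest transcript, was the most abundant gene of the list per length, followed by CALR (299.3), CANX (265.0) and HSPA5 (194.7), whereas ALDH1L2 was lowest of the genes tested at 1.12. HSPA5, encoding BiP, the chaperone that also holds the sensors inactive, was at 928.5, 963.9 and 791.2 CPM in knockdown and 752.4, 769.0 and 761.0 CPM in control libraries. Libraries a and b of the knockdown stood well above the controls and library c just above them. The log2 fold change was 0.23 ± 0.08 (SE; unadjusted p = 0.0119, adjusted p = 0.211 with edgeR). HSP90B1, encoding GRP94, the ER member of the HSP90 family, was at 1364, 1375 and 1165 CPM in knockdown and 1112, 1156 and 1158 CPM in control libraries. It showed the same order of libraries, with library c only just above the highest control, and a log2 fold change of 0.19 ± 0.08 (SE; adjusted p = 0.289 with edgeR).

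The disulfide isomerases, which form and reshuffle disulfide bonds, lay close to these values. PDIA4 was at 369.8, 405.4 and 355.5 CPM in knockdown and 324.5, 322.4 and 321.1 CPM in control libraries. PDIA6 was at 251.5, 254.5 and 219.4 CPM in knockdown and 201.9, 209.8 and 205.2 CPM in control libraries. Neither gene's groups overlapped, and the log2 fold changes were 0.22 ± 0.07 and 0.23 ± 0.07 (SE), with adjusted p of 0.165 and 0.166 (edgeR). PDIA4 was 1 of the 3 genes that DESeq2 called (adjusted p = 0.0382, over a range of 0.0191 to 0.485 across the alternatives).

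CALR, encoding calreticulin, a calcium-binding chaperone of glycoproteins, was at 681.4, 709.7 and 595.5 CPM in knockdown and 597.6, 554.0 and 557.3 CPM in control libraries. Knockdown library c fell within the controls' range, so the groups overlapped, and the log2 fold change was 0.22 ± 0.08 (SE; unadjusted p = 0.0159, adjusted p = 0.236 with edgeR). Its membrane-bound relative CANX, which does the same work, was at 0.05 ± 0.07 (SE) although its window holds the element. SDF2L1, part of the BiP and ERdj3 chaperone complex, was at 9.66, 11.1 and 10.5 CPM in knockdown and 8.80, 7.83 and 7.63 CPM in control libraries. All knockdown libraries were above all controls, with the highest log2 fold change of the 43 genes, 0.36 ± 0.11 (SE; unadjusted p = 0.00703, adjusted p = 0.173 with edgeR). The window of SDF2L1 holds none of the 3 motifs searched. With the GC trend removed the log2 fold changes were 0.15 for CALR, 0.16 for PDIA4 and 0.24 for SDF2L1. In the same fit they were 0.24 for HSPA5, 0.22 for HSP90B1 and 0.24 for PDIA6.

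The remaining genes of this group were nearer to 0. DNAJC3, a cochaperone of BiP that also inhibits eIF2 kinases, stood at 0.04, CRELD2, a secreted ER-stress protein, at 0.07, and MANF, an ER-resident neurotrophic factor, at 0.04 on the log2 scale, and their groups overlapped. DNAJB9, encoding ERdj4, a BiP cochaperone that XBP1 is known to induce, went the other way. It was at 10.7, 10.5 and 10.8 CPM in knockdown and 11.9, 11.4 and 12.6 CPM in control libraries, without overlap (log2 fold change -0.17 ± 0.10 SE; unadjusted p = 0.112). Of the 11 chaperones and foldases, 6 were higher and none lower at an unadjusted p under 0.05, where 6.68% of all genes tested were higher and 7.57% lower. Their median was 0.19 against 0.02 over all genes tested. For HSPA5, HSP90B1, PDIA4, PDIA6 and CALR, library c was the lowest of the knockdown libraries, so these genes are not separate observations.

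The 3 genes of ER-associated degradation, which takes misfolded proteins back to the cytosol, did not share a direction. SEL1L, the scaffold of the HRD1 ubiquitin ligase, was at 78.1, 81.7 and 70.5 CPM in knockdown and 64.0, 68.6 and 63.1 CPM in control libraries. EDEM1, which selects misfolded glycoproteins for disposal, was at 29.5, 30.8 and 30.6 CPM in knockdown and 35.6, 35.8 and 33.8 CPM in control libraries. Neither pair of groups overlapped, and the log2 fold changes were 0.24 ± 0.07 and -0.21 ± 0.07 (SE), with adjusted p of 0.172 and 0.191 (edgeR). HERPUD1, which recruits the ligase's components, was at 24.2, 24.0 and 24.3 CPM in knockdown and 23.3, 26.2 and 28.7 CPM in control libraries. The knockdown values lay inside the controls' range, with a log2 fold change of -0.11 ± 0.09 (SE; adjusted p = 0.603 with edgeR). Without these 3 genes the median of the ER chaperone arm was 0.19.

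**Figure D3:**
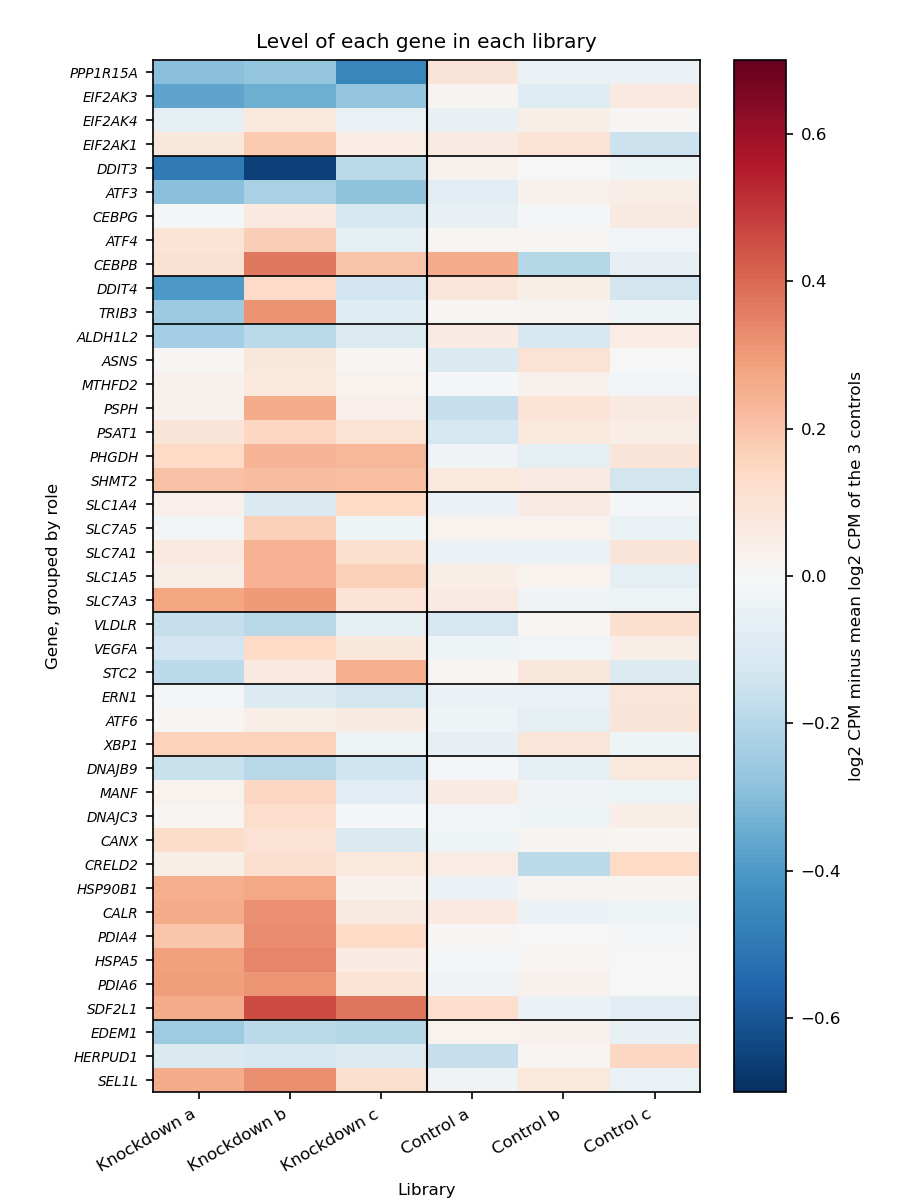
Log2 CPM of each of the 43 genes tested (rows, grouped by role) in each library (columns), minus the mean of the 3 control libraries (colour scale from -0.7 to 0.7). Knockdown library c is paler than a and b over HSPA5, HSP90B1, CALR and PDIA6, and EIF2AK3, PPP1R15A, ATF3 and DDIT3 are blue in all 3 knockdown libraries.

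The arms were then set against each other. The median of the amino acid arm was 0.02 below that of the ER chaperone arm on the log2 scale (a difference of -0.02), less than the SD of 0.0643 between libraries for this difference. That difference was -0.08 without the 3 degradation genes, -0.08 without control library a, -0.06 without knockdown library c and -0.04 without control library c. It was -0.0082 without knockdown library b, 0.01 without knockdown library a and 0.0053 without control library b, so neither its size nor its sign was stable. The libraries that were high or low were not the same in both arms. Relative to the control mean, the amino acid arm's median was 0.04 in knockdown library a, 0.19 in b and 0.10 in c, and the ER chaperone arm's was 0.16 in a, 0.21 in b and 0.04 in c. Control libraries lay between -0.02 and 0.03 for both arms. Library b was the highest of the 3 knockdown libraries in 10 of 12 amino acid genes and 11 of 14 ER genes, whereas the lowest was library a in 8 of the 12 and library c in 9 of the 14. Whether this difference between libraries is more than noise was not tested. Over the tested genes with counts in every library, the library medians were between 0.00 and 0.02.

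**Figure D4:**
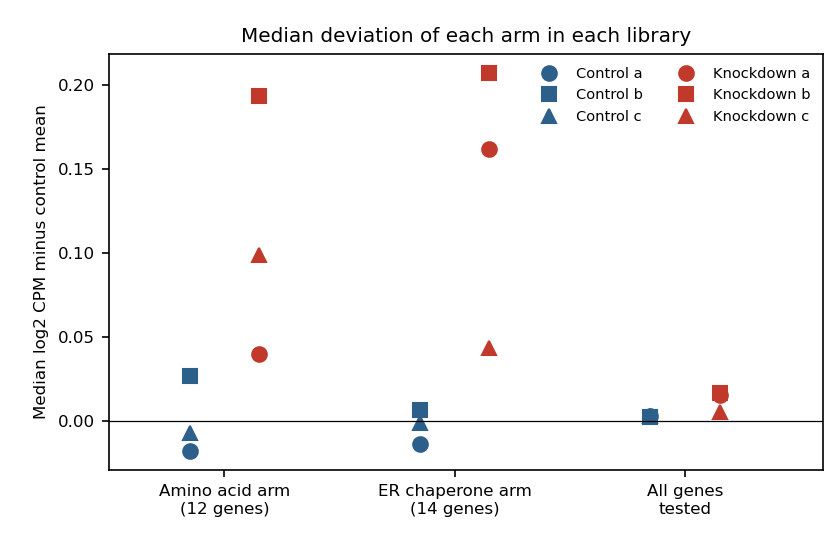
Median of log2 CPM minus the control mean (y axis), with 1 point per library (colour for group, shape for letter). It is taken over the genes of each arm and, as all genes tested, over the tested genes with counts in every library. Knockdown library b is highest in both arms at 0.19 and 0.21, library a is lowest in the amino acid arm at 0.04, and library c is lowest in the ER chaperone arm at 0.04.

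Knockdown library c mattered most for the calls. Without it, 8 of the 43 genes passed an adjusted p of 0.05 with edgeR: EIF2AK3 fell, and SLC7A3, HSPA5, HSP90B1, PDIA4, PDIA6, CALR and SEL1L rose, against a background of 6.4% of all genes tested. HSPA5 then had a log2 fold change of 0.29 and an adjusted p of 0.00435, within a range of 0.00435 to 0.53 over the alternatives. With knockdown library a left out instead, the one that stood apart, 0 of the 43 passed, against 0.507% of all genes tested. In that fit 16 were at an unadjusted p under 0.05 against a background of 13.3%. The medians of the arms were then 0.13 and 0.12. Leaving out knockdown library b, or any 1 control library, also gave 0 calls among the 43. The share over all genes tested was 0.301% without knockdown library b. It was 0.127% to 0.208% without a control library, so 0 of 43 lay near the background in each of these fits.

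**Figure D5:**
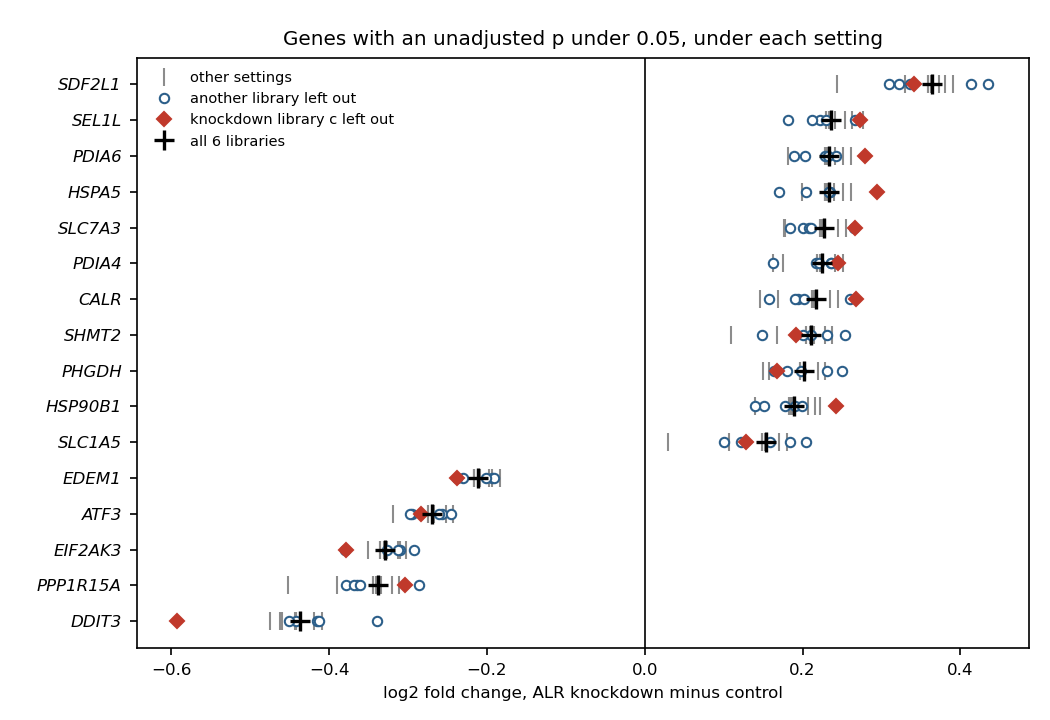
Log2 fold change (x axis) of the 16 genes with an unadjusted p under 0.05 (rows) with all 6 libraries (plus signs), with knockdown library c left out (diamonds), with another library left out (open circles) and under the other settings (ticks). Every gene, picked on these same libraries, stays on 1 side of 0. HSPA5 ranges from 0.17 to 0.29 over the fits that leave out 1 library.

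The wider pathway was read from 95 further genes in 8 lists, of which 90 were tested. There were 8 higher and 2 lower at an unadjusted p under 0.05, 11.1% of the 90, against 14.3% of all genes tested, and 1 passed the adjusted threshold. That gene was SLC7A11, an ATF4 target encoding the cystine carrier that supplies glutathione synthesis. It was at 37.0, 36.6 and 46.1 CPM in knockdown and 58.3, 55.8 and 50.6 CPM in control libraries. The groups did not overlap, library c was again nearest to the controls, and SLC7A11 fell by 0.46 ± 0.09 on the log2 scale (SE; adjusted p = 0.0475 with edgeR). The call held in 9 of the 17 alternatives and over an adjusted p of 6.16e-06 to 0.239. It was lost when knockdown library a or b or any 1 control library was left out, and also by library size alone, by upper quartile scaling and with a mean count of at least 50. The SLC7A11 locus overlaps the antisense gene SLC7A11-AS1.

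Of the other ATF4 targets, 14 of 16 were tested and 4 (28.6%, against 14.3% of all genes tested) had an unadjusted p under 0.05: SLC7A11, SESN2, a leucine sensor (-0.30, adjusted p = 0.18), JDP2, a repressor of the ATF family (0.29, adjusted p = 0.249), and ALDH18A1, of proline synthesis (0.15, adjusted p = 0.267), all by edgeR. Among 20 cytosolic tRNA synthetases, which charge tRNA and of which 7 of 16 with a window held the C/EBP-ATF element (43.8%), 2 were higher at that level, 10% of the 20 where 6.68% of all genes tested were. VARS1, for valine, had a log2 fold change of 0.31 ± 0.07 (SE; adjusted p = 0.0756 with edgeR), and AARS1, for alanine, 0.16 (adjusted p = 0.281). With the GC trend removed they were at 0.18 and 0.0964. The list of 11 genes for eIF2 and its exchange factor eIF2B, which also holds EIF2AK2, GCN1 and IMPACT, gave none at that level. Nor did the 5 tested genes of the mitochondrial stress relay and mitochondrial proteases (DELE1, LONP1, CLPP, CLPX and YME1L1). OMA1, also of the relay, held 0 counts and was not tested.

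Of 11 other ER folding genes, 3 (27.3%) had a higher level in knockdown with an unadjusted p under 0.05, against 6.68% of all genes tested, each short of the adjusted threshold with edgeR. HYOU1, an exchange factor for BiP, stood at 0.25 ± 0.07 (SE; adjusted p = 0.141), PPIB, a prolyl isomerase, at 0.28 (adjusted p = 0.145), and P4HB, a disulfide isomerase, at 0.20 (adjusted p = 0.269). With the GC trend removed HYOU1 was at 0.16 and P4HB at 0.0857, and P4HB was at 0.12 without knockdown library b. Of 14 genes of translocation into the ER, SSR1 was the 1 gene higher at that level (0.18, adjusted p = 0.283), a share of 7.14% that is near the background of 6.68%, and the 4 other ER sensor genes and 11 other degradation genes tested gave none. SESN2, JDP2, ALDH18A1, AARS1, PPIB and P4HB were singled out after their values were seen.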

How the data were processed

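Total RNA of 6 libraries, 3 in each group and lettered a to c, was sequenced after a directional library preparation, per the labels' protocols. The authors deposited raw read counts per gene symbol, 1 column per library. The submitters' processing notes name Trimmomatic 0.39, STAR 2.7.8a, featureCounts, Subread 2.14.2 and build hg38. The annotation, strand setting and handling of reads that align to several places are not given in the sources used here.

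Genes were kept by filterByExpr and libraries scaled by TMM. Groups were compared with edgeR 4.0.16 (R 4.3.3; quasi-likelihood, two-sided), with Benjamini-Hochberg adjustment over all 19721 genes tested, which held 99.9% of the counts. SE and 95% intervals come from this fit. The procedure was tested on simulated data. A gene that did not pass is not read as unchanged, since small changes can miss the threshold. Medians over lists have no test. The 17 alternatives were 3 other scalings, 2 other filters on low counts, DESeq2 1.42.0, limma-voom (3.58.1), a robust fit, the replicate letter as a block, trends on GC content or transcript length removed (natural splines, 5 degrees of freedom, 16014 genes, 81.2% of those tested), and each library left out in turn (6 fits).

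The genes, their roles and the lists were chosen with earlier results of these data known. Values per library are given for genes with an unadjusted p under 0.05, the named regulators, ASNS, PSAT1, HSPA5, HSP90B1 and HERPUD1. From each other list the gene with the smallest p is named if that p was under 0.05. DNAJB9 was added after its values were seen. Of the 46 genes, 19 overlap another RefSeq gene, and 9 have RefSeq pseudogenes named after them, whose rows held at most 3.14% of the parent gene's counts (ASNS). Promoter windows were found for 39 of the 46. They and the sequences are from RefSeq (GRCh38.p14).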

Additional observations from a re-analysis of the deposited data

How the results depend on the processing

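The number of genes passing an adjusted p of 0.05 was 155 over all genes and 0 of the 43 stress-response genes. It was 536 and 3 with DESeq2's Wald test and 1064 and 2 without a filter on low counts. With the robust fit it was 212 and 1, without the length trend 275 and 2, and without the GC trend 244 and 1. Leaving out 1 library gave 26 to 1309 genes, of which 0 to 8 were on the list, with both highest counts without knockdown library c. Library letters did not pair the libraries (correlations of deviations 0.0011, 0.113 and -0.0253), and the replicate block gave 393 genes and 2 of the 43. Over fits leaving out 1 library, the amino acid arm's median ranged from 0.06 to 0.13 and the ER chaperone arm's from 0.09 to 0.17. They were 0.0792 and 0.114 with the GC trend removed, and 0.0571 and 0.086 with the length trend removed.

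Genes near 0 changed sign, and the cause was not tested. With the GC trend removed the log2 fold changes were -0.028 for ATF4, 0.0059 for CEBPG, -0.0088 for CRELD2, -0.0105 for MANF, -0.084 for SLC7A5, -0.108 for TRIB3 and -0.0465 for VEGFA. With the length trend removed they were -0.0193 for ASNS, -0.0091 for MANF and -0.0303 for TRIB3. By library size alone CEBPG was at 0.0104 and EIF2AK4 at 0.0159, and by upper quartile scaling at 0.0009 and 0.0062. Leaving out 1 library gave ranges through 0 for ASNS (-0.0078 to 0.0778), CEBPG (-0.0673 to 0.0173), CRELD2 (-0.0265 to 0.14), DDIT4 (-0.27 to 0.0101), DNAJC3 (-0.0059 to 0.0671), EIF2AK4 (-0.0604 to 0.0122), MANF (-0.0317 to 0.0729), SLC1A4 (-0.0522 to 0.0821), SLC7A5 (-0.0348 to 0.0676), STC2 (-0.0709 to 0.16), TRIB3 (-0.17 to 0.14) and VEGFA (-0.0321 to 0.11). Each of the 16 genes with an unadjusted p under 0.05 kept its direction under all 17 alternatives. They were picked by that p in these same libraries, which the alternatives refit, so the kept directions are not separate evidence. Depth limits DDIT3 most among these 16, with under 5 CPM in every library.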

Other observations

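Several rows of these pathways held 0 counts. Of 16911 protein-coding rows that do not lie inside another gene of the table, 1263 held 0 counts in all 6 libraries (7.47%), and of 639 that do, 483 did (75.6%). PCK2, the mitochondrial enzyme that turns oxaloacetate into phosphoenolpyruvate, lies inside NRL; OMA1, the protease of the mitochondrial stress relay, inside DAB1; ERLEC1, a lectin of ER-associated degradation, inside GPR75-ASB3; and SOX2 inside SOX2-OT. All 4 rows held 0 counts in every library, as did ATF5. PPP1R15B, which overlaps no other RefSeq gene, also held 0. A 0 in these rows is therefore given as listed, and no level is read from it.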
